A study of Mus musculus with 6 samples.

Results

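The 37 genes described here belong to autophagy and the lysosome, and were given as a list of mouse symbols that was looked up in the table of 55401 genes. All 37 were found, and all 37 passed the filter on low counts that left 14212 genes for testing. The RNA was that of islets of the pancreas, taken from male mice of the C57BL/6 strain at an age of about 20 weeks. The 3 libraries labelled KO came from mice with 2 floxed copies of Pdgfra, the gene of platelet-derived growth factor receptor alpha, and with a Pdx1-Cre transgene. Pdx1 is active in the early pancreas and later mainly in beta cells, and its promoter drives Cre in that lineage. The 3 control libraries came from mice with the same floxed alleles and without Cre. Every group thus carried the floxed alleles, and no mice with Cre and unfloxed Pdgfra are among the samples, so effects of Cre and of Pdgfra deletion cannot be told apart. Nor can genotype be told apart from whatever is meant by an unexplained suffix on the KO columns of the table, which 0 of the control columns carry. Whether the libraries of a group come from different animals is not stated, and p-values therefore reflect only how far these libraries scatter, which may be technical.

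Autophagy encloses cytoplasm in a double membrane, the autophagosome, which then fuses with the lysosome, where acid hydrolases digest its content. The ULK1 kinase complex and the Beclin 1 lipid kinase complex start the membrane, conjugating enzymes attach the small ubiquitin-like proteins of the ATG8 family to it, and receptors such as p62 tie cargo to those proteins. TFEB, TFE3 and MITF are related transcription factors that bind a CACGTG core in the promoters of many lysosomal and autophagy genes. In beta cells autophagy is known to remove damaged organelles and protein aggregates, and lysosomes also take up surplus insulin granules.

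The binding motif of these factors was present in some of the promoters, which are shown here so that the sequences of the gene with the smallest p and of the most abundant gene can be set beside their values. Promoters of 300 bases, from 250 before to 50 after the start, were taken from RefSeq (GRCm38.p6) for 31 of the 37 genes, leaving Map1lc3a, Becn1, Atg12, Atg16l1, Ctsb and Vps11. A gene with several promoters, as 5 of the 31 had, was counted once if any of them matched. The search used the 7 letters TCACGTG on both strands, and a match to the palindrome TCACGTGA was counted as 1 site. It found a match in 8 of the 31 genes (25.8%), namely Atg14, Atg3, Atg7, Lamp1, Mcoln1, Ctsa, Ctsd and Gaa. Of the 10797 tested genes with a promoter, 742 (6.87%) had one. The palindrome TCACGTGA itself occurred in Atg3, Ctsa, Ctsd and Mcoln1, 4 of 31 genes (12.9%), and in 2.11% of all tested genes with a promoter. The bare core CACGTG, which the longer motifs contain, occurred in 10 of 31 genes (32.3%) and in 11.5% of all tested genes with a promoter. A longer palindrome of 10 bases, which adds a G before TCACGTGA and a C after it, was also searched. It occurred in 0 of 31 genes and in 79 of the 10797 tested genes with a promoter (0.732%). It was so rare that its absence from 31 genes does not tell them apart from the rest. A match describes letters in this window and does not show that a factor binds there.

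The 100 bases before the start are given for 5 genes with a match and for Ctsz, which had none and was among the 3 genes with the smallest p, in the direction of the gene with matches in capitals:
Lamp1, chr8:13159061-13159160, plus strand: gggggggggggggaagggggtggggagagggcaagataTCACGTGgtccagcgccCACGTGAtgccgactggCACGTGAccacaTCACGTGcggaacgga
Mcoln1, chr8:3500419-3500518, plus strand: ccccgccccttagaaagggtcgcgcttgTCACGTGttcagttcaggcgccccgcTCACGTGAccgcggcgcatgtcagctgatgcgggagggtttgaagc
Atg3, chr16:45158729-45158828, plus strand: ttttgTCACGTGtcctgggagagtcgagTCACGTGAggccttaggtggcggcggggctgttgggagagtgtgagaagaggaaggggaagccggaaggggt
Ctsd, chr7:142387828-142387927, minus strand: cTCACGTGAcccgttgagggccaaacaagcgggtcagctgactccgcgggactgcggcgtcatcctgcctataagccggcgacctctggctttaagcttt
Ctsa, chr2:164833673-164833772, plus strand: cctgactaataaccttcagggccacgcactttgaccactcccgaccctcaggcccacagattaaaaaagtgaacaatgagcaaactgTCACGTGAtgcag
Ctsz, chr2:174439040-174439139, minus strand: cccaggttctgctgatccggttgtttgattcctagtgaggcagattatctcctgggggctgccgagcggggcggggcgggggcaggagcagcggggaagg
Ctsa has 2 promoters, of which the one shown starts inside the annotated gene and the other, chr2:164832772-164832871 just before the gene, had no match. The bases shown for Ctsd also lie wholly inside the annotated gene, which ends at 142388038. Those of Mcoln1 and Atg3 begin before the annotated gene and end inside it, as the genes begin at 3500457 and 45158785. The palindrome of Mcoln1 lies in the part inside the gene. Lamp1 had 4 matches within 62 bases of its start. Mcoln1 and Atg3 had 2 each, and in both the match nearer the start was the palindrome. Genes with and without the motif are set side by side again after the results by role.

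None of the 37 genes passed the test for a difference between KO and control libraries. In the edgeR quasi-likelihood test, adjusted over all 14212 genes, 0 of 37 had an adjusted p under 0.05, and the lowest was 0.544. Over all genes the test called 10 (0.0704%), of which 1 was higher and 9 were lower in KO. At an unadjusted p under 0.05 there were 3 of the 37 (8.11%), all lower in KO, where 7.37% of all genes tested met that limit in either direction and 2.54% did so with lower values in KO. DESeq2 called 0 of the 37 as well, with 2 at an unadjusted p under 0.05, and limma-voom called 0 with 3.

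The scatter of these libraries set bounds on the difference between the groups for most of the genes. The standard error of the log2 fold change, KO over control, ran from 0.08 to 0.22 with a median of 0.11, where the median over all genes tested was 0.15. For 36 of the 37 genes the 95% interval lay within a 1.5-fold change in either direction. The number was 32 to 37 with 1 library left out, and 29 in a fit that adds each library's ribosomal RNA level (the ribosomal RNA covariate). That level was higher in every KO library than in any control, so this fit cannot tell it apart from genotype. The median standard error of the 37 genes was 0.18 with that covariate. In the fit on genotype alone the exception was Tfeb, the least abundant gene of the 37, whose interval ran from -0.64 to 0.34. In bulk RNA, fewer cells of a type and less RNA per cell cannot be told apart. The bounds concern these islet libraries and not beta cells alone. Since the libraries of a group may not be different animals, the intervals may leave out variation between animals.

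**Figure D1:**
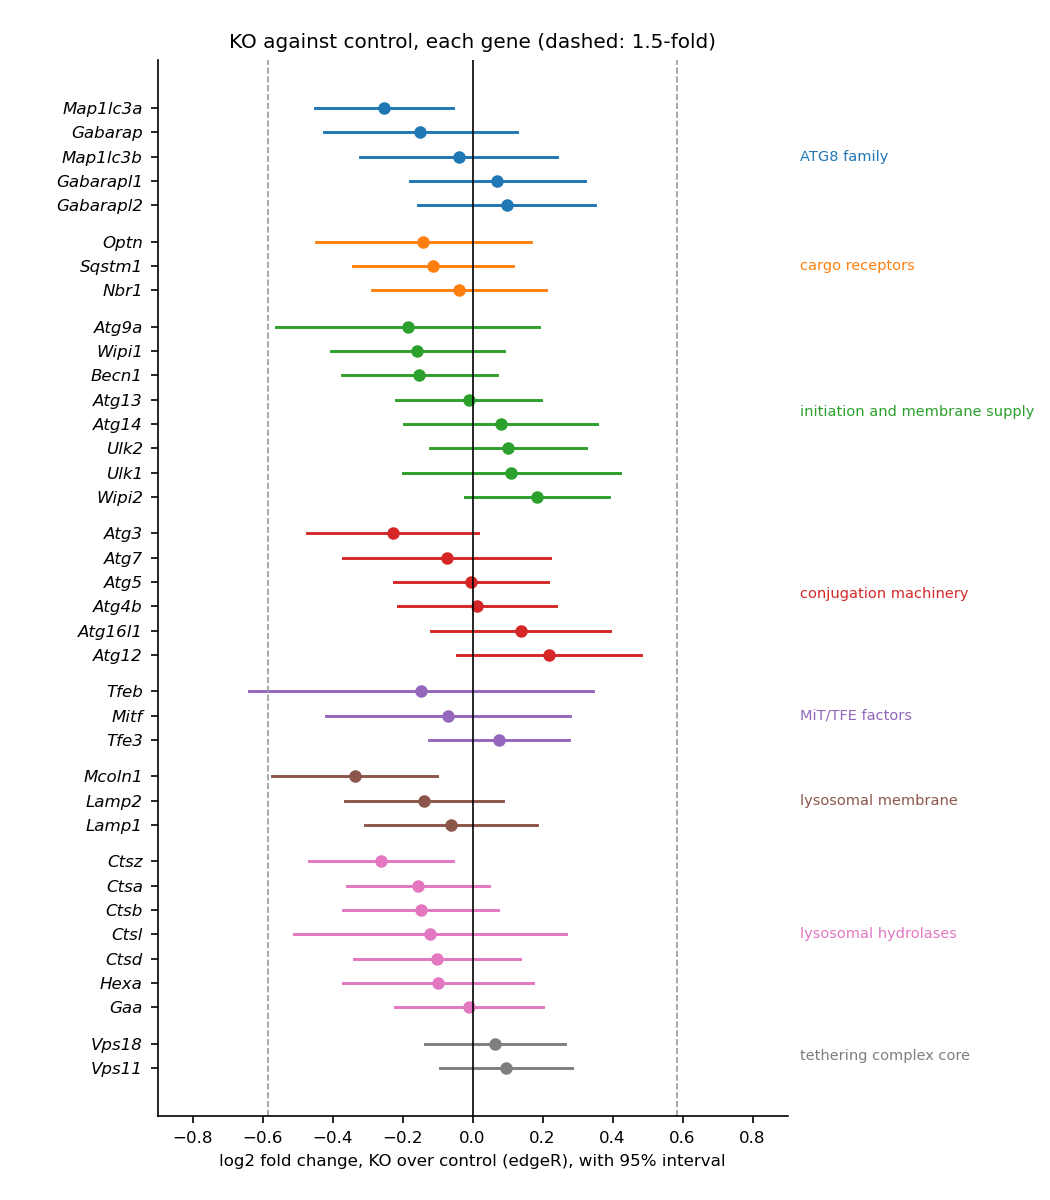
Log2 fold change, KO over control, of the 37 genes by role (points) with 95% intervals from the edgeR fit (lines), 3 libraries per group; dashed lines mark a 1.5-fold change. The 10 genes of the lysosomal membrane and hydrolase groups all lie left of 0, as do 52.2% of all genes tested (7 of the 10 with the ribosomal RNA covariate), and Mcoln1, Map1lc3a and Ctsz have intervals that leave out 0 before adjustment.

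The genes differed widely from each other in level. Levels between genes are compared as CPM per kilobase (counts scaled to library size with TMM factors, divided by the length of all annotated exons of the gene), which understates genes with long exons that few transcripts use. Lamp1, a heavily glycosylated protein of the lysosomal membrane, was highest at 154 ± 7.3 CPM per kilobase in KO and 161 ± 4.6 in controls (SD, n = 3 each). Gabarap, an ATG8 family member, followed at 106 ± 15 in KO and 118 ± 4.8 in controls, and Sqstm1, which encodes p62, had 63.2 ± 4.5 in KO and 68.4 ± 1.7 in controls. At the other end stood Tfeb with 0.448 ± 0.067 in KO and 0.498 ± 0.083 in controls. Ranked by this measure among all genes tested, the 37 genes had a median percentile of 83.6, and 15 of them lay above percentile 90.

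**Figure D2:**
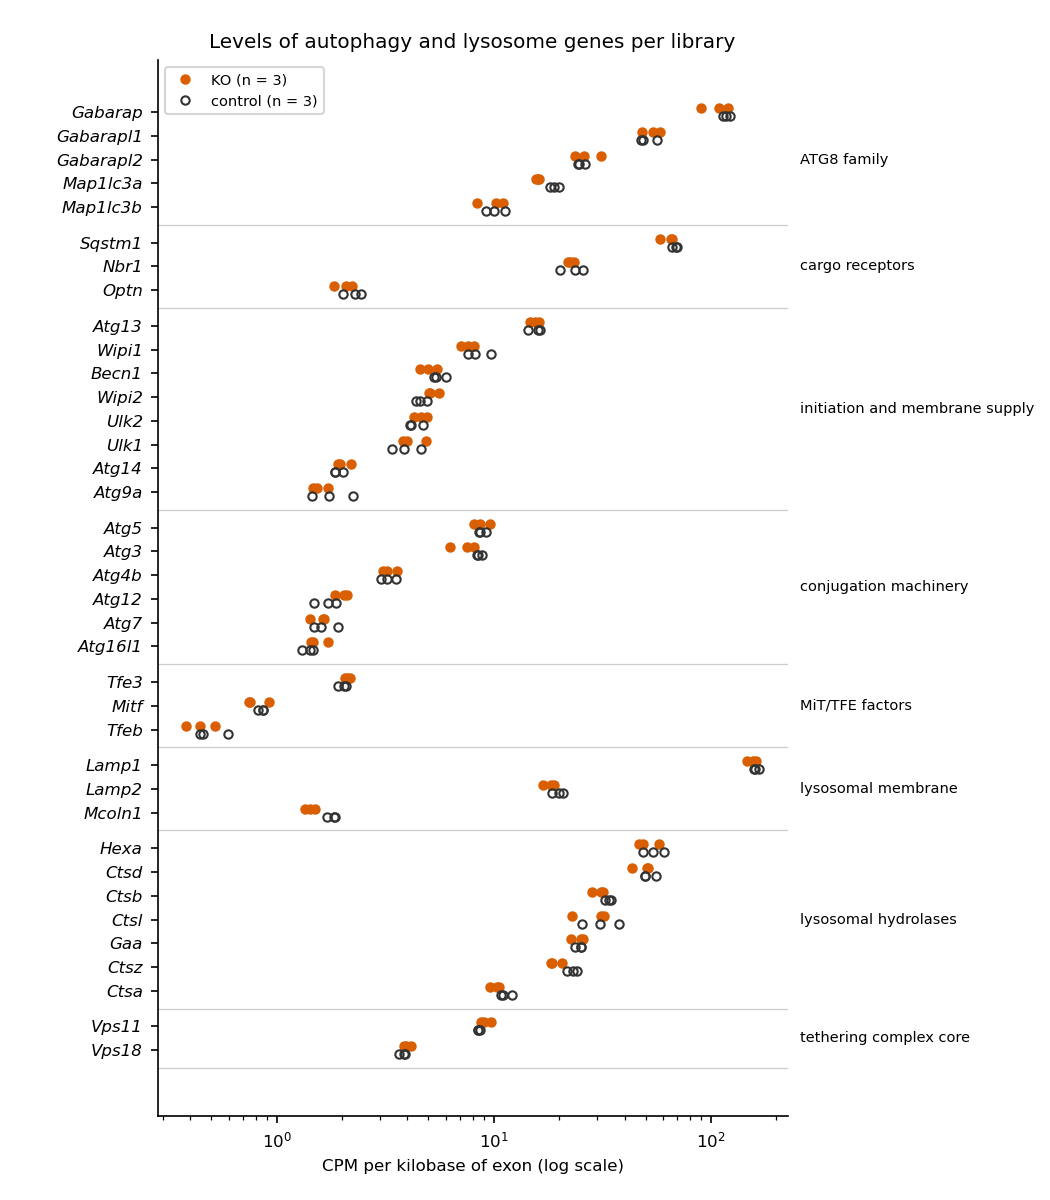
CPM per kilobase of exon on a log axis in each library, KO (filled, n = 3) above control (open, n = 3), ordered by level within each role. Levels run from Tfeb at 0.448 in KO and 0.498 in controls to Lamp1 at 154 in KO and 161 in controls, and the distance between genes is much larger than that between groups.

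The ATG8 family holds the proteins that are joined to lipid in the autophagosome membrane. Map1lc3a, one of the LC3 genes (chromosome 2, 155276297 to 155278073, GRCm38), had 18.8, 19.1 and 18.5 CPM in KO 1, 2 and 3, against 23.6, 22.3 and 21.4 CPM in controls 1, 2 and 3. All 3 KO libraries lay below all controls. The log2 fold change was -0.25 (SE 0.09, unadjusted p = 0.0174, edgeR adjusted p = 0.600), and it stayed between -0.29 and -0.22 with any 1 library left out. Map1lc3b, the gene of the LC3 form most used as an autophagosome marker, had 76.8, 83.0 and 62.8 CPM in KO and 85.0, 74.9 and 69.0 CPM in controls, and the groups overlapped. Its value was -0.04 (SE 0.13). Per kilobase Map1lc3a was the higher of the LC3 genes in both groups, at 15.9 ± 0.25 in KO and 19.0 ± 0.92 in controls, where Map1lc3b had 9.87 ± 1.4 in KO and 10.1 ± 1.1 in controls. Within the GABARAP branch, whose members are known to act late in autophagosome formation, Gabarap had a value of -0.15 (SE 0.12; -0.043 without KO 3), Gabarapl1 of 0.07 (SE 0.11) and Gabarapl2 of 0.10 (SE 0.11). Their order by CPM per kilobase was Gabarap, Gabarapl1 and Gabarapl2 in both groups, with no overlap between neighbours in any library.

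Near-identical copies bear on part of this family. Map1lc3b matched 4 processed pseudogenes and Gabarapl2 matched 3 at 95% identity or more over at least 300 bases. The copies held few counts in the table, at most 62 over the 6 libraries for Gm6055 where Map1lc3b had 9334, and at most 33 for Gm3724 where Gabarapl2 had 7660. The handling of reads with several matches is not given in the sources used here, and reads lost from the parent genes were not measured.

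Cargo receptors carry ubiquitin-binding and LC3-binding stretches and are themselves degraded with their cargo. Sqstm1 had 220, 221 and 195 CPM in KO 1, 2 and 3 and 234, 223 and 231 CPM in controls 1, 2 and 3. The groups did not overlap, but KO 2 and control 2 lay close together, and the log2 fold change was -0.11 (SE 0.10, edgeR adjusted p = 0.819). Nbr1, a related receptor, stood at 155 ± 4.9 CPM in KO and 159 ± 19 CPM in controls (SD, n = 3 each). Optn, the gene of optineurin, was far lower at 7.67 ± 0.73 CPM in KO and 8.43 ± 0.79 CPM in controls. Their log2 fold changes were -0.04 (SE 0.11) and -0.14 (SE 0.14).

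The 8 genes that start the autophagosome were split, with 4 positive and 4 negative values and a median log2 fold change of 0.035. Wipi2, whose protein reads the lipid made by the Beclin 1 complex and recruits the conjugating enzymes (chromosome 5, 142627698 to 142670588), had 53.8, 53.3 and 59.2 CPM in KO and 52.1, 48.3 and 46.1 CPM in controls. All KO libraries lay above all controls, with a value of 0.19 (SE 0.09, unadjusted p = 0.0725, edgeR adjusted p = 0.724), or 0.098 with the ribosomal RNA covariate. Its relative Wipi1 had 33.6, 35.7 and 31.2 CPM in KO and 42.7, 36.2 and 33.5 CPM in controls, a value of -0.16 (SE 0.11; -0.058 without control 1) with overlapping groups. The initiating kinase genes Ulk1 and Ulk2 had values of 0.11 (SE 0.14) and 0.10 (SE 0.10), and Atg13, which encodes a regulatory subunit of their complex, of -0.01 (SE 0.09). Becn1, the gene of Beclin 1, had a value of -0.15 (SE 0.10), and Atg14, which directs that complex to autophagy, of 0.08 (SE 0.12). Atg9a, the gene of a membrane protein that brings lipid to the growing autophagosome, had a value of -0.19 (SE 0.17) and was highest in control 1, at 13.0 CPM against 10.1 and 8.40 in controls 2 and 3. Without control 1 its value was -0.015.

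The conjugating enzymes were split as well, with 3 positive and 3 negative values and a median of 0.0043. Atg3, the enzyme that hands ATG8 proteins to lipid (chromosome 16, 45158785 to 45188538), had 25.6, 23.8 and 19.8 CPM in KO and 27.8, 26.7 and 26.5 CPM in controls. The groups did not overlap, KO 3 was the lowest library, and the log2 fold change was -0.23 (SE 0.11, unadjusted p = 0.0644, edgeR adjusted p = 0.706). Without KO 3 it was -0.13, and with the ribosomal RNA covariate 0.0068. Atg12, the gene of a ubiquitin-like protein that is joined to ATG5, had 15.7, 16.2 and 14.3 CPM in KO and 11.5, 13.3 and 14.5 CPM in controls, a value of 0.22 (SE 0.12, edgeR adjusted p = 0.730). Only KO 3 fell within the range of the controls. Atg5 itself had 20.7 ± 1.8 CPM in KO and 20.6 ± 0.82 CPM in controls (SD, n = 3 each), with a value of -0.0038 (SE 0.10). Atg7, the activating enzyme of both conjugation routes, Atg4b, the protease that trims ATG8 proteins, and Atg16l1, the partner of ATG5 and ATG12, had values of -0.07 (SE 0.13), 0.01 (SE 0.10) and 0.14 (SE 0.11).

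The transcription factors of the family were expressed at unequal levels. Tfe3 had 2.12 ± 0.065 CPM per kilobase in KO and 2.01 ± 0.086 in controls, Mitf 0.807 ± 0.099 in KO and 0.847 ± 0.028 in controls, and Tfeb was lowest, as given above. The lowest Tfe3 value lay above the highest Mitf value, and the lowest Mitf value above the highest Tfeb value. Tfeb had between 42 and 79 counts per library, and its log2 fold change was -0.15 (SE 0.22), that of Tfe3 0.08 (SE 0.09) and that of Mitf -0.07 (SE 0.16). The activity of these factors is set largely by phosphorylation and their place in the cell, which RNA levels do not show.

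All 10 genes of the lysosomal membrane and of lysosomal hydrolases had negative values, where 52.2% of all genes tested did, and none passed the test. With 1 library left out 9 or 10 of the 10 were negative, and with the ribosomal RNA covariate 7 were, since Lamp1, Ctsd and Ctsl turned positive. Mcoln1, the gene of a calcium channel of the lysosomal membrane (chromosome 8, 3500457 to 3515232), had the smallest p of the 37. It had 10.8, 11.4 and 10.2 CPM in KO 1, 2 and 3, against 14.0, 12.9 and 13.9 CPM in controls 1, 2 and 3. All KO libraries lay below all controls. On the log2 scale KO differed from control by -0.34 with a 95% interval of -0.57 to -0.10 (SE 0.11, unadjusted p = 0.0101, edgeR adjusted p = 0.544). With any 1 library left out it lay between -0.37 and -0.30. A stretch of 400 bases of Mcoln1 matches the long non-coding RNA gene A230057D06Rik at 95% identity. That gene held 302 counts over the 6 libraries and Mcoln1 1538, so the split of reads between them is uncertain. Lamp1 had 430, 417 and 391 CPM in KO and 427, 421 and 445 CPM in controls, with overlapping groups and a value of -0.06 (SE 0.11). Lamp2, its relative, which is also needed for fusion with autophagosomes, had a value of -0.14 (SE 0.10).

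Among the hydrolases, Ctsz, the gene of cathepsin Z (chromosome 2, 174427493 to 174439039), had 29.7, 26.4 and 26.6 CPM in KO, against 34.7, 33.3 and 31.4 CPM in controls. The groups did not overlap, and the log2 fold change was -0.26 (SE 0.09, unadjusted p = 0.0180, edgeR adjusted p = 0.600), or -0.13 with the ribosomal RNA covariate. Ctsb, the gene of the abundant protease cathepsin B, had 192, 188 and 171 CPM in KO and 209, 205 and 196 CPM in controls, and Ctsa, which encodes a carboxypeptidase that also protects other hydrolases, had 48.7, 49.6 and 45.1 CPM in KO and 57.3, 51.0 and 51.7 CPM in controls. Neither overlapped between groups, with values of -0.15 (SE 0.10) and -0.16 (SE 0.09). Ctsl, a cysteine protease gene, varied most between libraries of the 37 genes, with 209, 202 and 148 CPM in KO and 245, 199 and 166 CPM in controls, and its value was -0.12 (SE 0.17). Ctsd, an aspartic protease gene, Hexa, whose loss causes Tay-Sachs disease in humans, and Gaa, the glycogen-degrading enzyme of the lysosome, had values of -0.10 (SE 0.11), -0.10 (SE 0.12) and -0.01 (SE 0.09). Without KO 3 that of Ctsd was -0.025, and without control 3 that of Hexa was -0.011.

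Vps11 and Vps18 encode the core of the complexes that tether late endosomes and autophagosomes to lysosomes. Vps11 had 42.9, 47.7 and 44.5 CPM in KO and 41.6, 42.9 and 41.9 CPM in controls, with KO 1 and control 2 next to each other and no overlap. The log2 fold change was 0.10 (SE 0.08, edgeR adjusted p = 0.816), and that of Vps18 was 0.06 (SE 0.09).

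**Figure D3:**
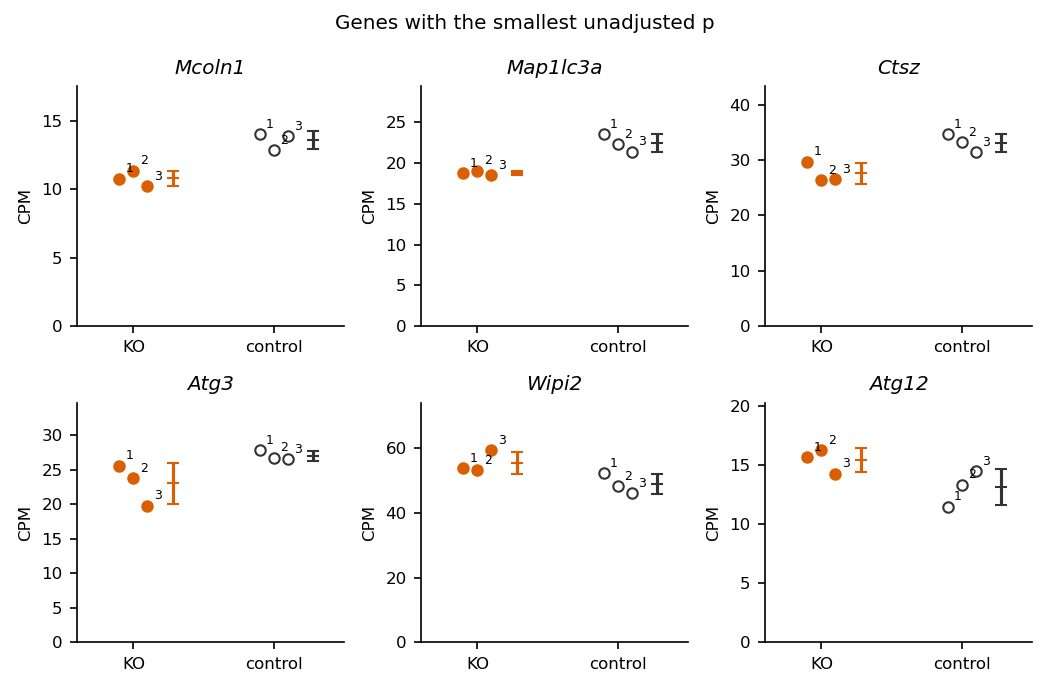
CPM from 0 in each library (points, numbered by replicate; KO filled, control open) with mean and SD (bars, n = 3 each) for the 6 genes with the smallest unadjusted p. Mcoln1, Map1lc3a, Ctsz and Atg3 lie lower in every KO library than in any control and Wipi2 lies higher, while the groups of Atg12 overlap.

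As a group the 37 genes leaned slightly downward in KO. Of them 25 (67.6%) had negative values, with a median log2 fold change of -0.07, where 52.2% of all tested genes were negative and their median was -0.01. All 3 KO libraries lay below all controls in 7 of the 37 genes (18.9%), against 5.94% of all genes tested, and above them in 2 (5.41%), against 7.94% of all genes. The genes below were Map1lc3a, Sqstm1, Atg3, Mcoln1, Ctsa, Ctsb and Ctsz, and those above were Wipi2 and Vps11. With 1 library left out the number below ran from 8 to 10, and the share of all genes from 9.37% to 13.7%. Leaving out a library can only keep or raise these numbers.

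By the median, single libraries carried much of this lean. KO 3 was the lowest library for 19 of the 37 genes and control 1 the highest for 17. The median deviation of the 37 genes from their own means, on the log2 scale, was -0.0017, -0.0023 and -0.13 in KO 1, 2 and 3, against 0.089, 0.0018 and 0.024 in controls 1, 2 and 3. Without KO 3 the median log2 fold change of the 37 genes was -0.04, and without control 1 it was -0.02. The number of negative genes changed less. It was 23 without KO 3 (62.2%, against 51.3% of all genes tested) and 21 without control 1 (56.8%, against 51.5%). With any other library left out it was 23 to 26. A ribosomal RNA locus took 5.36%, 12.6% and 18.5% of counts in KO 1, 2 and 3 and 4.38%, 3.32% and 4.51% in controls 1, 2 and 3. With the level of that locus as a covariate the median was -0.02 and 21 of 37 genes were negative. Every KO library lay above every control in that level, so the fit cannot tell ribosomal RNA and genotype apart.

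**Figure D4:**
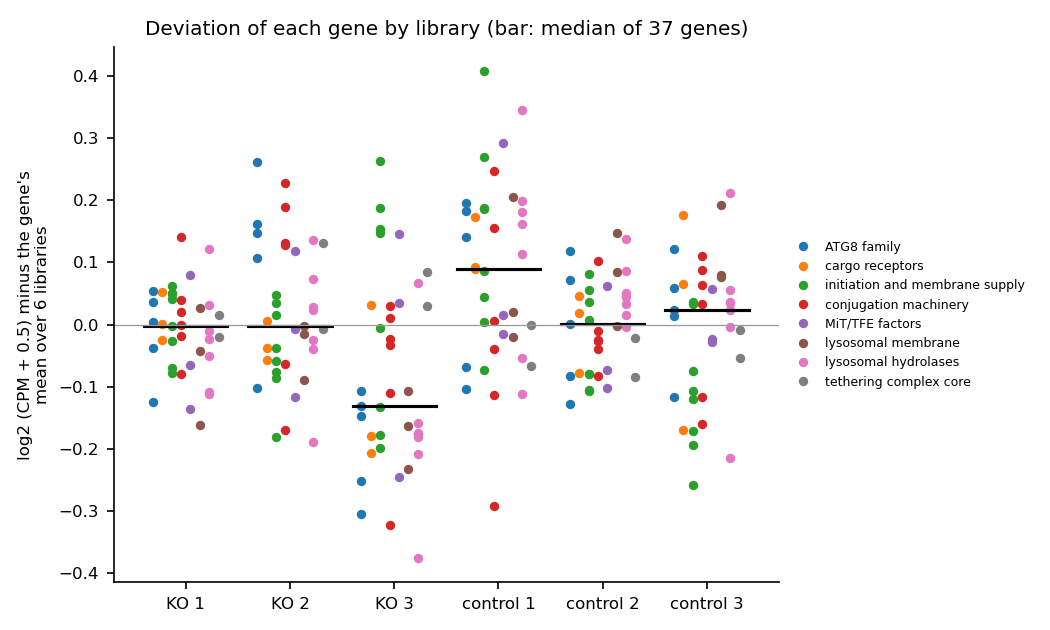
Deviation of each gene from its mean over the 6 libraries on the log2 (CPM + 0.5) scale, by library and coloured by role, with a bar at the median of the 37 genes. The median is -0.13 in KO 3 and 0.089 in control 1, and the other 4 libraries lie between -0.0023 and 0.024.

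Markers of other cells moved with some of these libraries. All 17 acinar markers, mostly digestive enzymes, had negative values (median -0.23), with 0 past the threshold, and summed to 162990 to 317087 CPM in KO and 184561 to 472791 CPM in controls. They were highest in control 1 and lowest in KO 3, which are also the libraries with the highest and lowest median of the 37 genes. The other libraries did not follow that order. Control 3, at 184561 CPM, had a median of 0.024, and KO 2, at 317087 CPM, had one of -0.0023. The part of acinar RNA in the lean was not tested beyond a covariate, with which the median was -0.04. Macrophages are rich in lysosomes, and the 15 macrophage markers summed to 117 to 157 CPM in KO and 139 to 167 CPM in controls, with no marker at 0 in any library, 12 of 14 tested markers negative and 0 past the threshold. KO 2 was the lowest library for them. Cd68, Ctss and Laptm5 among them are lysosomal genes that are also in the wider set below, so this list is not separate from lysosomal genes. Fibroblast markers were negative in 8 of 9 genes (median -0.36), summing to 47.9 to 242 CPM in KO and 154 to 302 CPM in controls, and endothelial markers in 7 of 8 (median -0.12), summing to 295 to 541 CPM in KO and 435 to 526 CPM in controls. None of these passed the threshold or was at 0 in any library, KO 2 was lowest for both lists, and their part in the lean was not tested. With the macrophage score as a covariate the values of Mcoln1, Map1lc3a and Ctsz were -0.37, -0.26 and -0.24. The 10 beta-cell markers summed to 104382 to 148019 CPM in KO and 96289 to 125607 CPM in controls, and RNA of both endocrine and acinar cells was thus present in every library. Of these markers 7 were positive and 3 negative (median 0.12), with 0 past the threshold, and their part in the lean was not tested.

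The wider set of 173 other autophagy and lysosome genes gave the same count of calls. Of these, 169 were tested, 0 passed the threshold, and 110 (65.1%) had negative values with a median log2 fold change of -0.04. At an unadjusted p under 0.05 there were 6 of 169 (3.55%), 1 higher and 5 lower, which is below the 7.37% of all genes. In 11 of 169 genes (6.51%) every KO library lay below every control, against 5.94% of all genes tested. In 13 (7.69%) every KO library lay above every control, against 7.94% of all genes. The larger share of genes lying below in the main list was thus not repeated in the wider set. The lowest edgeR adjusted p of the wider set was 0.542.

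Of the 7 wider lists, the hydrolases and the vacuolar ATPase had the largest shares of negative values. Of 39 other hydrolases and activators 32 were negative (median -0.06), and in each direction the gene with the smallest p was Idua, a glycosaminoglycan-degrading enzyme, at -0.30 (SE 0.12, edgeR adjusted p = 0.665), and Acp5, a phosphatase of macrophages and osteoclasts, at 0.57 (SE 0.29). Of 18 subunits of the vacuolar ATPase, the pump that acidifies the lysosome and also insulin granules, 16 were negative (median -0.06). Among them were Atp6v0d1 at -0.22 (SE 0.10, edgeR adjusted p = 0.702) and, of the 2 positive ones, Atp6v0a2 at 0.04 (SE 0.09). Without KO 3 the number of negative ATPase subunits was 10 of 18 and that of the hydrolases 30 of 39. With the ribosomal RNA covariate these numbers were 15 of 18 and 23 of 39. With any 1 library left out they ran from 10 to 18 and from 26 to 34. Other lysosomal membrane proteins had 15 of 26 negative, with Abca2 at 0.21 (SE 0.11).

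Lists of the autophagy machinery were nearer an even split, except for genes of fusion. Other core genes had 12 of 23 positive values, with Rubcn, an inhibitor of autophagosome maturation, at 0.22 (SE 0.10, edgeR adjusted p = 0.702) and Vmp1, a membrane protein of the endoplasmic reticulum, at -0.23 (SE 0.14), which was -0.11 without KO 3. Other selective receptors had 8 of 16 positive, with Wdfy3 at 0.34 (SE 0.18), which was 0.081 without KO 3, and Sec62 at -0.15 (SE 0.11). Genes of fusion had 10 of 15 negative, with Vps41, a partner of Vps11 and Vps18, at -0.23 (SE 0.08, unadjusted p = 0.0197, edgeR adjusted p = 0.600) and Plekhm1 at 0.20 (SE 0.10).

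Genes that relay nutrient state to autophagy included the lowest unadjusted p of the wider set. Tsc1, an inhibitor of mTORC1, had 40.1 ± 2.1 CPM in KO and 32.8 ± 1.5 CPM in controls (SD, n = 3 each), a value of 0.29 (SE 0.09, unadjusted p = 0.00850, edgeR adjusted p = 0.542) with no overlap. Sesn2, a stress-induced inhibitor of mTORC1, had 21.8 ± 1.4 CPM in KO and 26.3 ± 1.0 CPM in controls, a value of -0.27 (SE 0.09, unadjusted p = 0.0145, edgeR adjusted p = 0.591), again with no overlap. In that list 18 of 32 values were negative and 0 passed.

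The values can be set beside the promoter motif. The 8 genes of the 37 with TCACGTG had a median log2 fold change of -0.09, with 7 negative, and the 23 without it had -0.04, with 15 negative. Over all tested genes with a promoter the medians were -0.01 in the 742 with the motif and -0.01 in the 10055 without it, with 391 and 5282 negative. Of the 7 negative genes with the motif, Atg3, Lamp1 and Ctsd turned positive with the ribosomal RNA covariate. Atg7 and Gaa did so with 1 library left out. Lamp1, Mcoln1, Ctsa, Ctsd and Gaa are also in the lysosomal groups, so motif and role overlap. Lamp1, with 4 matches, had a value of -0.06, Mcoln1, with 2, of -0.34, and Ctsz, with 0, of -0.26.

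Exons shared with other genes limit some of these values, and the strand setting of the counting is not given. Of the exon bases of Becn1, 43.9% lie in Cntd1 on the other strand, and of those of Ctsd 34.4% lie in Gm49369 on the same strand, so reads there may have been left out or split. Of the exon bases of Atg9a, 31.8% lie in Gm29253, also on the same strand, where no strand setting separates the reads. Of those of Gabarapl1 28.3% lie in 1700101I11Rik, and of Ctsl 26.9% in Gm47123, both on the other strand. Smaller parts lie in genes with more counts, also on the other strand. For Ctsb 12.8% lie in Fdft1, which had 390 to 991 counts per library. For Ctsa 10.5% lie in Pltp (48 to 180 counts), and for Lamp1 9.31% in Grtp1 (104 to 331 counts). Pdgfra itself had 93, 25 and 125 counts in KO 1, 2 and 3 and 42, 88 and 116 counts in controls 1, 2 and 3 (log2 fold change -0.26, SE 0.34, edgeR adjusted p = 0.869). Counts over the whole gene include transcripts that lack only the deleted exons, so they do not check the genotype labels.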

How the data were processed

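The values analysed are raw counts per gene, deposited by the authors in 1 table with a column for each of 6 islet libraries and the exon length of every gene. The submitters' processing notes name STAR 2.7.9 and featureCounts 2.0.0, and list mm10 and GRCm38.p6 as builds. Strand setting, annotation release and fate of multi-mapped reads were not given in the sources used here. An mRNA kit was used per the labels' protocols, and no sorting step is named. Symbols came from a gene name table that matched 55141 of 55401 identifiers, and coordinates are those of the deposited count table.

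Library totals ran from 15026094 to 25299689 counts. The test was edgeR 4.0.16 (R 4.3.3) by glmQLFit and glmQLFTest with TMM scaling and genotype as the only term, on genes kept by filterByExpr (minimum count 10, minimum total 15). P-values were two-sided and adjusted by Benjamini-Hochberg over 14212 genes, with a threshold of 0.05. The standard error is the log2 fold change divided by the square root of F. The script was tested on simulated data. Alternatives used DESeq2 1.42.0 and limma 3.58.1. Copies were searched with BLAST 2.17.0 among GENCODE transcripts, and promoters came from RefSeq. All 37 genes were named, with the gene of smallest p in each direction from each of 7 wider lists, of which 1 is not reported here. Members and lists were chosen with earlier results of these data known, so their directions are no independent support. Figures were made with Python 3.11.15 and matplotlib 3.10.9.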

Additional observations from a re-analysis of the deposited data

How the results depend on the processing

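None of the 37 genes and none of the 169 tested wider genes passed the threshold under any of the 15 alternatives, the lowest adjusted p of the 37 being 0.353 with sample quality weights. The number of the 37 with positive values was 12 and ran from 11 to 16. Over all genes the 10 calls changed to 300 without the filter on low counts, 48 with DESeq2, 6 with limma-voom, 30 with sample quality weights, 48 with the acinar covariate, 3 with the macrophage covariate and 1 with the ribosomal RNA covariate, and to between 2 and 6 with 1 library left out; the cause was not tested. With the replicate number as a block there were 36 calls, 0 of them among the 37. Correlations of deviations within the number pairs were 0.157, -0.156 and 0.142, so the numbers were not taken to pair the libraries.

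Of the 37 genes, 23 kept their sign under all alternatives. Leaving out 1 library shrank the value more than 1.5 times or turned its sign in 31 of the 37, the other 6 being Map1lc3a, Wipi2, Lamp2, Mcoln1, Ctsa and Ctsz, and the ribosomal RNA covariate did so in 21. With the ribosomal RNA covariate 10 changed sign: Map1lc3b (0.11), Atg13 (0.082), Atg3 (0.0068), Atg5 (0.015), Lamp1 (0.014), Ctsd (0.028) and Ctsl (0.18) became positive, and Ulk1 (-0.073), Atg14 (-0.034) and Atg4b (-0.074) negative. So did the wider genes Rubcn (-0.036), Wdfy3 (-0.10), Sec62 (0.061) and Atp6v0a2 (-0.051). Sample quality weights turned Map1lc3b (0.013), Atg4b (-0.019) and Atg5 (0.0013), the acinar covariate Map1lc3b (0.018), Atg13 (0.0050) and Atg4b (-0.0031), and the macrophage covariate Atg13 (0.025) and Atg4b (-0.028). With 1 library left out, values ran from -0.13 to 0.069 for Map1lc3b, -0.019 to 0.18 for Gabarapl2, -0.13 to 0.042 for Nbr1, -0.0040 to 0.23 for Ulk1, -0.067 to 0.027 for Atg13, -0.050 to 0.080 for Atg4b, -0.070 to 0.051 for Atg5, -0.16 to 0.033 for Atg7, -0.25 to 0.032 for Ctsl, -0.046 to 0.040 for Gaa, -0.0085 to 0.079 for Atp6v0a2 and -0.59 to 0.044 for Pdgfra. The cause was not tested. The count of genes with every KO library below every control, repeated with libraries left out after seeing the data, ran from 8 to 10, and that above from 2 to 6.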
